A study of Mus musculus with 11 samples.

Results

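The genes described here encode the subunits of the glutamate and GABA receptors. Their RNA was sequenced from E14.5 mouse embryonic cortex. The genes were chosen by symbol alone, as every row named for an AMPA, NMDA, kainate, delta or metabotropic glutamate receptor or for a GABA-A or GABA-B receptor subunit. The rule found 47 genes among 24138 loci, 26 of them for glutamate and 21 for GABA receptors. The comparison was between 2 Chd8 conditional knockout (cKO) libraries, labelled Chd8 c/c with Emx1-cre, and 3 control libraries without Cre. Control 1 carried the genotype Chd8 c/+, and controls 2 and 3 carried c/c. Chd8 encodes a chromatin remodelling enzyme, and c denotes the conditional allele that Cre recombines. Emx1-cre acts in dorsal telencephalic progenitors and their progeny, so interneurons that migrate in from the ventral telencephalon, microglia and vessels keep Chd8 in the cKO. Titles and genotypes name Chd8, while the treatment text of the RNA samples speaks of an Eed cKO, a difference the labels do not settle. They also do not say whether a library came from 1 embryo or from a pool, so the p-values measure the spread between these libraries, which may be technical. The series also listed 6 ATAC-seq samples, which were not analysed here.

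Glutamate and GABA are the main excitatory and inhibitory transmitters of the forebrain. AMPA, NMDA and kainate receptors are cation channels, GABA-A receptors are chloride channels, both built of several subunits, and the metabotropic glutamate and GABA-B receptors signal through G proteins. Before synapses form, GABA depolarises immature neurons because they hold much chloride, and both transmitters act on progenitors and on migrating neurons. Subunits are exchanged during maturation. NMDA receptors of the embryo carry GluN2B and GluN2D, with GluN2A following after birth, and embryonic GABA-A receptors carry alpha-2, alpha-3 and alpha-5 subunits.

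Values are FPKM, fragments per length of transcript and per sequenced fragments, which allow levels of different genes to be compared per length. Of the 47 genes, 32 averaged 1 FPKM or more across the 5 libraries and were tested with limma on log2(FPKM + 1) together with all 12672 loci at that level. Each of the 32 also averaged 1 FPKM or more within either group. The targeted gene Chd8 had control values of 31.5, 30.02 and 31.8 FPKM and cKO values of 19.3 and 15.1, with the cKO below every control (log2 change -0.83, SE 0.15, adjusted p = 0.575 over all loci in limma). Its unadjusted p in limma was 0.00172. The adjustment gave the same 0.575 to genes of larger unadjusted p, such as Grm5 at 0.121 in limma. The authors' deposited table marked Chd8 significant (log2 fold change -0.86, q-value 0.00331).

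The libraries differed in marker genes of brain regions and cell types. All 8 dorsal telencephalic markers were present, the lowest value being 9.46 FPKM, and their summed level was 671, 1514 and 1061 FPKM in the controls, in the order 1 to 3 kept throughout, and 972 and 669.7 in the cKO. The sum of 7 markers of the thalamus was 224 FPKM in control 1 against 25.0 to 52.5 FPKM in the other 4 libraries. Control 1 was highest for 6 of the 7 and by a wide margin for 5, Tcf7l2, Lhx9, Irx1, Foxp2 and Barhl2, while Gbx2 was 2.92 FPKM there and 4.16 in control 3. Irx1, a diencephalic homeobox gene, was 34.1 FPKM in control 1 and at most 0.890 FPKM elsewhere. The sum of 8 intermediate progenitor markers was 357, 775 and 494 FPKM in the controls. In the cKO libraries it was 335 and 279 FPKM, below every control. Control 2, the highest there, had the lowest sum of 14 ventral and GABAergic markers, 392 FPKM against 473 and 758 in controls 1 and 3. The ventral and GABAergic sum was 1032 and 958 FPKM in the cKO libraries, above every control, and the microglial sum (10 genes) was 102 and 98.3 against 30.7 to 49.1 FPKM. None of the 7 thalamic, 14 ventral or 10 microglial markers was at 0 in any library, the lowest values being 0.0458, 0.105 and 0.372 FPKM. The part of these differences in the receptor values was not tested, and in whole cortex fewer cells of a type and less RNA per cell cannot be told apart.

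None of the receptor subunit genes passed the test in limma, with Benjamini-Hochberg adjustment over all loci. No member was called in either direction, where 0.0473% of all tested loci (6 loci) were called, 0.0158% as higher and 0.0316% as lower in the cKO. At an unadjusted p under 0.05, 1 of 32 was higher in the cKO (Gabra2), where 3.08% of all tested loci were, and none was lower, where 4.37% were. In 4 genes, with Gabra2, Gabra5 and Grm5 among them, both cKO libraries lay above every control, or 12.5% of the 32 against 13.4% of all tested loci. In Grik5 and Grin3b both lay below every control, or 6.25% against 15.6%. These shares were near or under the background. In the authors' deposited table, 3 of the 38 subunit genes tested there were marked significant and higher in the cKO, where 1.21% of all tested loci were, and none was marked lower, where 3.0% were. Grm5 (log2 fold change 0.82, q-value 0.00331) and Gabra2 (0.67, q-value 0.0443) were among the 3 in the authors' deposited table.

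The direction of the 32 genes as a list depended on single libraries, most of all on control 2. With all libraries 27 of 32 had a positive log2 change, against 46.9% of all tested loci, and the median was 0.28 against -0.025. Without control 2, 14 of 32 were positive, against 47.5% of all loci, and the median was -0.01. Without cKO 1, 19 of 32 were positive, against 45.1% of all loci. Without control 1, the library with the highest thalamic marker sum, 29 were positive with a median of 0.55, and in 19 genes both cKO libraries lay above the 2 remaining controls, where 27.7% of all loci did.

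**Figure D1:**
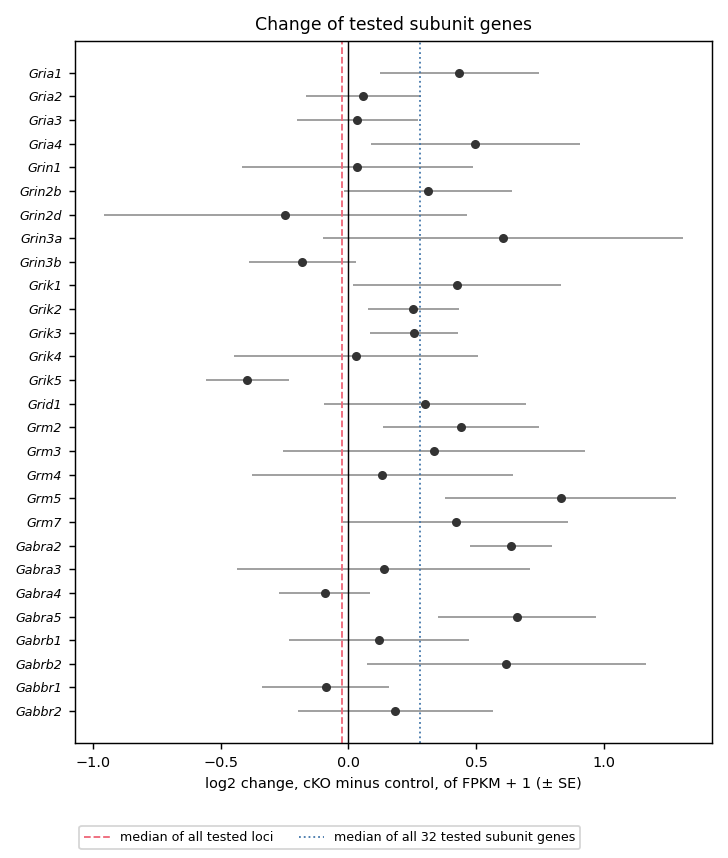
Log2 change of FPKM + 1 (cKO minus control, horizontal axis) of 28 of the 32 tested subunit genes, in the order AMPA, NMDA, kainate, delta, metabotropic glutamate, GABA-A and GABA-B. Points are limma estimates, bars are ± 1 SE, the dashed line is the median of all tested loci (-0.025) and the dotted line that of all 32 (0.28).

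The larger differences were among the controls themselves. In 25 of 32 genes control 1 was the highest control and control 2 the lowest, an order seen in 30.2% of all tested loci. The highest control was at least 3 times the lowest in 14 of 32, against 5.35% of all tested loci. Both cKO libraries lay inside the range of the controls in 19 of 32, against 28.6%. Summed over the 47 genes, receptor subunit RNA was 555, 331 and 416 FPKM in the controls and 520.0 and 415 FPKM in the cKO. Over 11 pan-neuronal markers the sum had the same order among the controls, at 2714, 2066 and 2364 FPKM, with 2704 and 2162 FPKM in cKO 1 and 2. Tubb3, the highest of the 11, did not follow that order among the controls (1343, 1324 and 1373 FPKM). Neither did Rbfox3 (31.2, 41.5 and 33.9 FPKM), while the other markers of the list did.

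**Figure D2:**
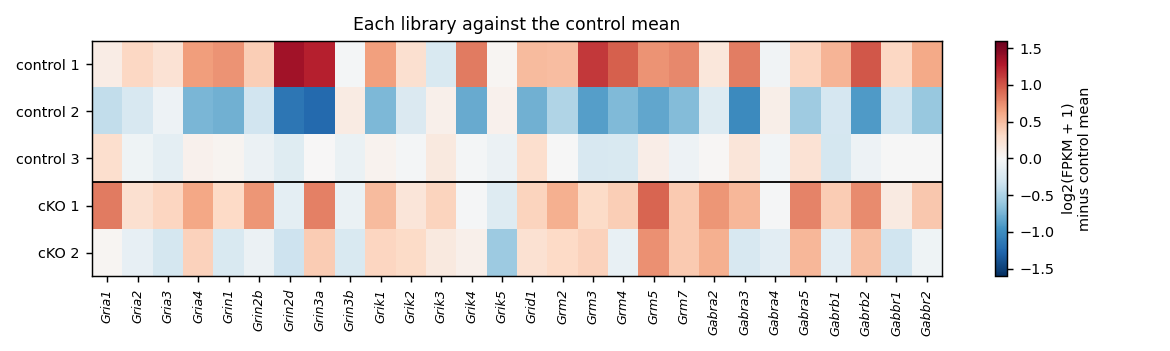
Level of 28 of the 32 tested subunit genes in each library as log2(FPKM + 1) minus the mean of the 3 controls (colour scale), with libraries as rows and genes as columns. Control 1 is above and control 2 below the control mean in most columns, and the cKO rows lie between them for most genes.

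Per length, 3 genes stood above the rest. Grik5 (mean over the 5 libraries 80.7 FPKM), Gabbr1 (75.5) and Gria2 (46.2) led, followed by 6 genes between 15.3 and 28.3 FPKM, with Grik3, Gria1, Grik2 and Gabra2 among them. Grik5 and Gabbr1 overlapped in their library values, as did neighbouring genes of the second group. The other 23 tested genes had means of 1.17 to 11.7 FPKM. The 15 untested genes had means from 0 to 0.929 FPKM.

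**Figure D3:**
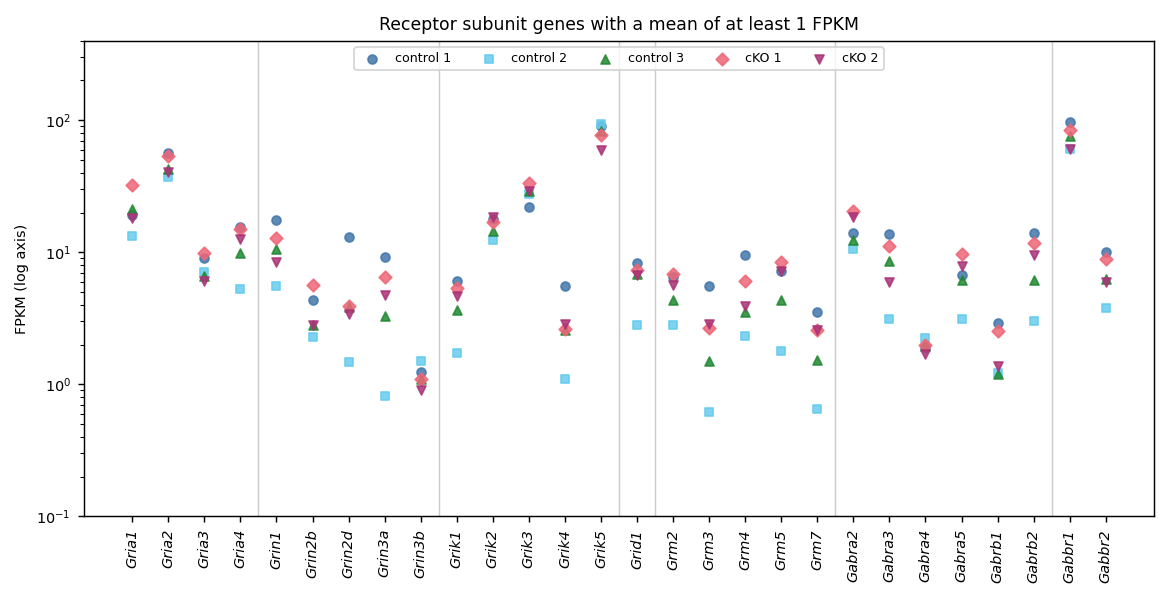
FPKM (log axis) of 28 of the 32 tested subunit genes in the 5 libraries, one symbol per library, with vertical lines between receptor families. Grik5, Gabbr1 and Gria2 are the highest, and control 2 (squares) is the lowest library in most genes.

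Of the AMPA receptor genes, which encode the channels of fast excitation, all 4 were tested, all 4 had a positive log2 change and none passed. Gria2 encodes GluA2, the subunit that makes the channel impermeable to calcium once its RNA is edited. It was 56.4, 37.3 and 42.7 FPKM in the controls and 53.7 and 40.7 in the cKO, and the groups overlapped widely (log2 change 0.06, SE 0.23, adjusted p = 0.926). Gria1, which encodes GluA1, was 19.2, 13.2 and 21.4 in the controls and 32.1 and 18.03 in the cKO. Only cKO 1 stood above the controls there (log2 change 0.43, SE 0.31, adjusted p = 0.630), and the log2 change was 0.03 without cKO 1 and 0.83 without cKO 2. Gria4, the GluA4 gene, was 15.6, 5.28 and 9.89 in the controls and 15.02 and 12.5 in the cKO, both under control 1, and its log2 change went from 0.50 to 0.13 without control 2. Gria3 ranged from 6.03 to 9.83 FPKM. As a share of the 4 genes' FPKM, Gria2 took 56.3%, 59.4% and 53.0% in the controls and 48.5% and 52.7% in the cKO, the highest share of the 4 in every library and lower in both cKO libraries than in any control.

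The NMDA receptor genes had low levels beside AMPA and kainate genes, and 5 of 7 were tested. Grin1 encodes GluN1, the subunit every NMDA receptor needs. It was 17.4, 5.57 and 10.6 FPKM in the controls and 12.9 and 8.43 in the cKO, inside the control range (log2 change 0.04, SE 0.45, adjusted p = 0.979). Grin2d, which encodes GluN2D, was 13.05, 1.47 and 3.83 in the controls and 3.93 and 3.38 in the cKO. Control 1 was far above the other 4 libraries, and without it the log2 change went from -0.25 to 0.43. Grin2b, which encodes GluN2B, was 4.32, 2.30 and 2.82 in the controls and 5.65 and 2.82 in the cKO, with cKO 2 at the level of control 3. Among the 4 GluN2 genes, Grin2b took 24.5%, 55.99% and 40.1% of the FPKM in controls 1 to 3 and 57.5% and 43.97% in the cKO, while Grin2d took 73.9%, 35.8% and 54.4% and then 40.03% and 52.7%. The balance of Grin2b and Grin2d thus differed more between controls 1 and 2 than between the group means.

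Grin2a was at most 0.147 and Grin2c at most 0.317 FPKM in any library, and neither was tested. Grin3a, which encodes GluN3A, a subunit of immature receptors, was 9.14, 0.813 and 3.32 in the controls and 6.49 and 4.71 in the cKO, inside an 11.2-fold range of the controls. Grin3b was 1.23, 1.49 and 1.11 in the controls and 1.10 and 0.909 in the cKO. Its cKO libraries were the lowest, but the margin between cKO 1 and control 3 was under the SD of either group (SD 0.195 and 0.138 FPKM), and the adjusted p was 0.746.

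Kainate receptor genes held the highest level of the set and its most negative log2 change. Grik5 (chromosome 7, 25009849 to 25075694 in GRCm38.p6) encodes GluK5, a high-affinity subunit that forms channels only together with GluK1, GluK2 or GluK3. It was 90.6, 93.6 and 82.97 FPKM in the controls and 76.9 and 59.1 in the cKO. Both cKO libraries lay below every control, at 68.01 ± 12.6 (SD, n = 2) against 89.1 ± 5.50 (SD, n = 3), or 0.764 times the control mean. The log2 change was -0.40 (SE 0.16), with an adjusted p of 0.575 in limma, and an exact two-sided permutation test gave p = 0.1, the smallest possible with 3 and 2 libraries. Without cKO 2 the log2 change was -0.21, and without cKO 1 it was -0.58. The authors' deposited table gave it a log2 fold change of -0.39 and a q-value of 0.213.

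The principal subunits that pair with GluK5 had positive log2 changes. Grik3, the GluK3 gene, was 21.8, 27.7 and 29.2 FPKM in the controls and 33.6 and 29.2 in the cKO, where cKO 2 equalled control 3 to 3 digits (log2 change 0.26, SE 0.17, adjusted p = 0.620). Grik2, the GluK2 gene, was 17.9, 12.5 and 14.4 in the controls and 17.1 and 18.6 in the cKO, with cKO 1 under control 1 (log2 change 0.25, SE 0.18, adjusted p = 0.627). Grik1 was 6.08, 1.71 and 3.67 in the controls and 5.36 and 4.69 in the cKO, and Grik4 ranged from 1.10 to 5.52 FPKM. Without control 2 the log2 change of Grik1 went from 0.43 to 0.07 and that of Grik2 to 0.14, and without control 1 that of Grik3 went to 0.13. As a share of the 5 kainate genes, Grik5 took 63.9%, 68.6% and 62.5% in the controls and 56.7% and 51.7% in the cKO, and Grik3 took 15.4%, 20.3% and 22.01% and then 24.8% and 25.5%. Both shares separated the groups, and they are not independent of each other because the 5 shares sum to the whole. Shares within a family were not tested, here or for the other families, and have no background over all loci.

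The delta receptors are relatives of the ionotropic receptors that bind cerebellins. Grid1 was 8.25, 2.82 and 6.88 FPKM in the controls and 7.34 and 6.77 in the cKO, inside the control range (log2 change 0.30, SE 0.40).

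Of the metabotropic glutamate receptor genes, 6 of 8 were tested, all 6 had a positive log2 change and none passed. Grm5 (chromosome 7, 87583981 to 88135063) encodes mGlu5, a Gq-coupled receptor of neural progenitors and young neurons. It was 7.16, 1.78 and 4.34 FPKM in the controls and 8.42 and 7.23 in the cKO. Both cKO libraries exceeded every control, cKO 2 by less than 0.1 FPKM over control 1. The means were 7.82 ± 0.843 (SD, n = 2) and 4.43 ± 2.69 (SD, n = 3), a log2 change of 0.83 (SE 0.45) that was the largest of the 32 and had an adjusted p of 0.575 in limma. The exact two-sided permutation p was 0.2. Without control 2 the log2 change was 0.41, and without control 1 it was 1.19. Of the summed FPKM of the 8 genes, Grm5 took 19.5%, 19.8% and 24.4% in the controls and 27.96% and 29.2% in the cKO.

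Grm2, which encodes the Gi-coupled mGlu2, was 6.53, 2.82 and 4.31 in the controls and 6.90 and 5.68 in the cKO, with cKO 2 under control 1. Grm7, the presynaptic mGlu7 gene, was 3.55, 0.645 and 1.52 in the controls and 2.56 in both cKO libraries. Without control 2 the log2 changes of Grm2 and Grm7 went from 0.44 to 0.20 and from 0.42 to 0.07. Grm3 and Grm4 had log2 changes of 0.34 and 0.13 with both cKO libraries inside the control range. Grm8 did not exceed 1.54 FPKM. Grm6, a gene of retinal bipolar cells, did not exceed 0.0201 FPKM and is listed at 0 in both cKO libraries.

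**Figure D4:**
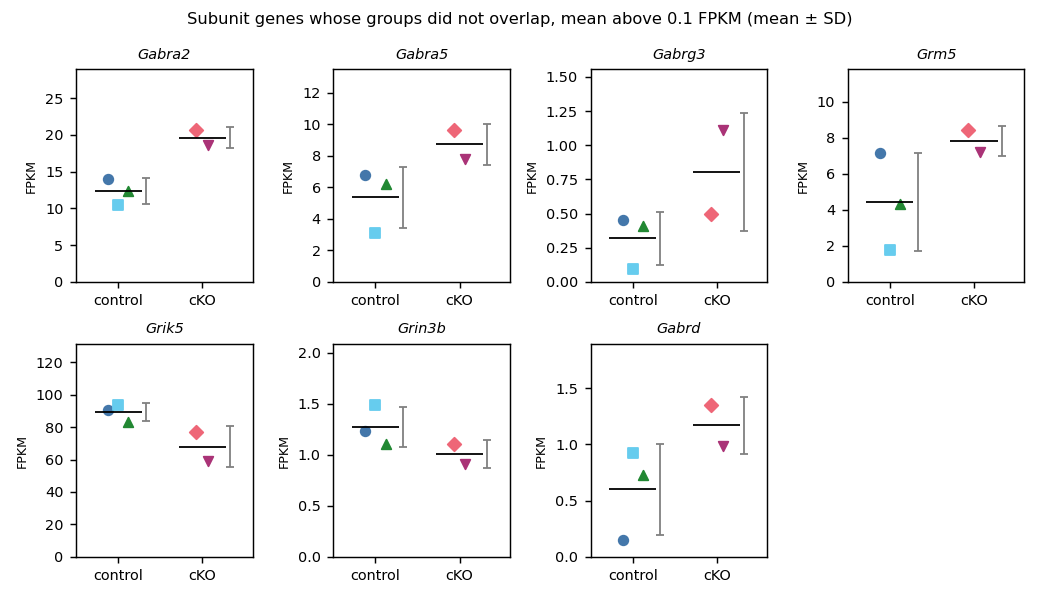
FPKM in each library (circle, square and triangle for controls 1 to 3, diamond and inverted triangle for cKO 1 and 2) of 7 subunit genes with a mean above 0.1 FPKM whose groups did not overlap. Lines are means and grey bars are ± SD (n = 3 and n = 2). Grik5 and Grin3b are lower in the cKO and the other 5 higher, and Gabrg3 and Gabrd lie under the tested level.

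GABA-A receptor genes gave 3 of the 4 genes with both cKO libraries above every control. Of 19 genes 9 were tested, 8 of these had a positive log2 change and none passed, and their median change was 0.57. Gabra2 (chromosome 5, 70958392 to 71095849) encodes alpha-2, the main alpha subunit of the embryonic forebrain, and took the largest share of alpha subunit FPKM in all 5 libraries, 34.3% to 54.5%. It was 14.1, 10.5 and 12.4 FPKM in the controls and 20.7 and 18.6 in the cKO. Both cKO libraries were above the controls by more than the SD of either group, at 19.7 ± 1.45 (SD, n = 2) against 12.3 ± 1.78 (SD, n = 3), or 1.59 times. The log2 change was 0.64 (SE 0.16), with an adjusted p of 0.575 in limma over all loci and an unadjusted p of 0.00856, and the exact two-sided permutation p was 0.1, the smallest possible here.

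Gabra5 (chromosome 7, 57407669 to 57591016), which encodes alpha-5, a subunit of extrasynaptic receptors, was 6.75, 3.11 and 6.19 FPKM in the controls and 9.63 and 7.81 in the cKO. It was 1.63 times the control mean (log2 change 0.66, SE 0.31, adjusted p = 0.575). Control 2 was far below the other libraries, and without it the log2 change was 0.37. Gabrg3, the gamma-3 gene beside Gabra5 (chromosome 7, 56716463 to 57387215), was 0.449, 0.0966 and 0.407 FPKM in the controls and 0.499 and 1.11 in the cKO. It was under the tested level, with a cKO mean of 0.805 against 0.318. These neighbours were grouped after their values were seen. RefSeq spans of Gabra4 and Gabrb1 overlap by 388 bases, and that of Gabra5 also overlaps another gene, so where counting ignored strand the reads could not be told apart in those stretches.

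In the other GABA-A clusters the groups overlapped for every tested gene but Gabra2. On chromosome 5, Gabra2 lies with Gabrg1, Gabra4 and Gabrb1. Gabra4 was 1.91, 2.23 and 1.94 FPKM in the controls and 1.98 and 1.70 in the cKO, Gabrb1 ranged from 1.20 to 2.90 FPKM, and Gabrg1 had a cKO mean of 1.24 against 0.721 with overlap. On chromosome 11, Gabrb2 was 14.1, 3.02 and 6.13 in the controls and 11.8 and 9.52 in the cKO. Its cKO libraries lay between controls 1 and 3, with a log2 change of 0.62 (SE 0.55) that was 0.16 without control 2 and 1.12 without control 1. On the X chromosome, Gabra3 was 13.8, 3.12 and 8.60 in the controls and 11.1 and 5.98 in the cKO (log2 change 0.14, SE 0.57), while Gabrq and Gabre stayed at or under 1.47 and 0.452 FPKM.

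The remaining GABA-A genes were scarce. Gabrd, the delta gene of tonic inhibition, was 0.149, 0.921 and 0.726 FPKM in the controls and 1.35 and 0.988 in the cKO, again with the cKO above every control but under the tested level. Of the rho genes Gabrr2 was highest, at 0.160 to 0.424 FPKM, and Gabrr1 reached 0.174 FPKM. Gabrr3 and Gabrp are listed at 0 in every library, and Gabra6, an alpha gene of cerebellar granule cells, at 0 in the controls and at 0.0211 and 0.0298 FPKM in the cKO.

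GABA-B receptors are dimers in which GABBR1 binds GABA and GABBR2 couples to the G protein. Gabbr1 was 96.1, 60.6 and 75.8 FPKM in the controls and 84.1 and 60.9 in the cKO (log2 change -0.09, SE 0.25, adjusted p = 0.898). Gabbr2 was 10.1, 3.79 and 6.24 in the controls and 8.84 and 5.94 in the cKO (log2 change 0.18, SE 0.38, adjusted p = 0.861). Both stayed inside the control range, and Gabbr1 exceeded Gabbr2 in every library.

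The genes with separated groups can be set beside their promoters. RefSeq promoter windows (GRCm38.p6, 250 bases before to 50 after a start) were matched for 32 of the 47 genes, 39 windows in all. The 5 below are those matched for genes plotted above whose groups did not overlap, 3 higher and 2 lower in the cKO, printed 5′ to 3′ on the strand of the gene, with capitals for the letters GGGCGG (GC box), CCAAT and TATAAA on either strand.
Gabra2, chr5:71095800-71096099, minus strand: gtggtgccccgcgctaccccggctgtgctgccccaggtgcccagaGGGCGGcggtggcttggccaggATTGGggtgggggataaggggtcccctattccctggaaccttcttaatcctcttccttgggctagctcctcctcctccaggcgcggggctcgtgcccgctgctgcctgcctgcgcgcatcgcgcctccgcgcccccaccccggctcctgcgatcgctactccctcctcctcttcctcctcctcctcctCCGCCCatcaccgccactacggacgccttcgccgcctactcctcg
Gabra5, chr7:57510010-57510309, minus strand: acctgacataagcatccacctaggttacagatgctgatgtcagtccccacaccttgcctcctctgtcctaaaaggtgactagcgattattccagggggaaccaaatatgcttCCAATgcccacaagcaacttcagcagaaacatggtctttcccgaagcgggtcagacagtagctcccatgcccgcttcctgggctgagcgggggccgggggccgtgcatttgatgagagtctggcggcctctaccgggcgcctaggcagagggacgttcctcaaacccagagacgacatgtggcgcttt
Gabrg3, chr7:57387166-57387465, minus strand: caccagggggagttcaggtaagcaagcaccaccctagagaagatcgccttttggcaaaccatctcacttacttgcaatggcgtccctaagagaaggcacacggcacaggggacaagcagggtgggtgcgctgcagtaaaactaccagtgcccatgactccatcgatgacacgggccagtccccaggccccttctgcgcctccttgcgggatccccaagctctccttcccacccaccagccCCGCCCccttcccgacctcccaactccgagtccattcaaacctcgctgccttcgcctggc
Grik5, chr7:25072320-25072619, minus strand: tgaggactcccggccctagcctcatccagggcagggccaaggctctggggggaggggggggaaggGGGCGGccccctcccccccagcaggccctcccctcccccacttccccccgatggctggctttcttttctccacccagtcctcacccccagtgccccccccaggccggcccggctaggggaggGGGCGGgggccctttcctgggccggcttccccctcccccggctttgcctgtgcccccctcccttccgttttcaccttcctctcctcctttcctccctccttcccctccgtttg
Grin3b, chr10:79970474-79970773, plus strand: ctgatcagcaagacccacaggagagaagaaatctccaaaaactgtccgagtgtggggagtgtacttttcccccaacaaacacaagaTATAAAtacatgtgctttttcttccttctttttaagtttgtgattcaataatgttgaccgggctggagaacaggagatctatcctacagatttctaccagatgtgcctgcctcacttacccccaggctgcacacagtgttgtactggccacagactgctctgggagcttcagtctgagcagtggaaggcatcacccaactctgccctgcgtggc
The windows of Gabra5, Grik5 and Grin3b belong to starts inside the RefSeq span of the gene, and those of Gabra2 and Gabrg3 to its outer start. GGGCGG was found in the windows of Gabra2, Gabrg3 and Grik5, CCAAT in those of Gabra2 and Gabra5, and TATAAA in that of Grin3b. Over all 39 windows, 19 held GGGCGG, against 35.7% of the 32851 windows in the table, 16 held CCAAT, against 37.4%, and 4 held TATAAA, against 13.6%. At least 10 CG dinucleotides stood in 25 of 39, against 43.5% of all windows. The Gabra2 window held 25 of them, those of Gabra5 and Gabrg3 13 each, that of Grik5 10 and that of Grin3b 3. These matches describe the letters only.

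Genes that work with the receptors were taken from lists of auxiliary subunits, scaffolds, transporters and glycine receptors. Of 65 such genes 57 were tested and none passed over all loci. At an unadjusted p under 0.05, 6 of 57 were higher and 1 lower in the cKO, against 3.08% and 4.37% of all loci, and both cKO libraries exceeded every control in 11 of 57 and lay below in 1, against 13.4% and 15.6% of all loci. The median log2 change was 0.08.

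Both auxiliary subunits of kainate receptors were among those with separated groups. Neto1, which also binds NMDA receptors, was 5.15, 3.12 and 4.39 FPKM in the controls and 10.1 and 7.87 in the cKO, or 2.13 times the control mean (log2 change 0.95, SE 0.22, adjusted p = 0.575). Neto2 was 26.5, 16.9 and 20.3 in the controls and 29.7 and 33.9 in the cKO (log2 change 0.58, SE 0.21, adjusted p = 0.575). Grik5 had a negative log2 change, and a relation between these genes was not tested. Of the 5 tested kainate and delta receptor partners, Neto1 and Neto2 among them, 3 had a positive log2 change and 2 a negative one. Among 12 AMPA receptor partners, Cacng8, the TARP gamma-8 gene, was 67.0, 97.8 and 106 in the controls and 291 and 128 in the cKO. Most of the difference came from cKO 1. This locus carries 2 gene symbols, so its FPKM may not be those of Cacng8 alone. Gsg1l, which encodes an auxiliary subunit that slows AMPA receptor recovery, was 10.1, 9.76 and 8.66 in the controls and 7.41 and 5.41 in the cKO (log2 change -0.52, SE 0.17, adjusted p = 0.575).

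**Figure D5:**
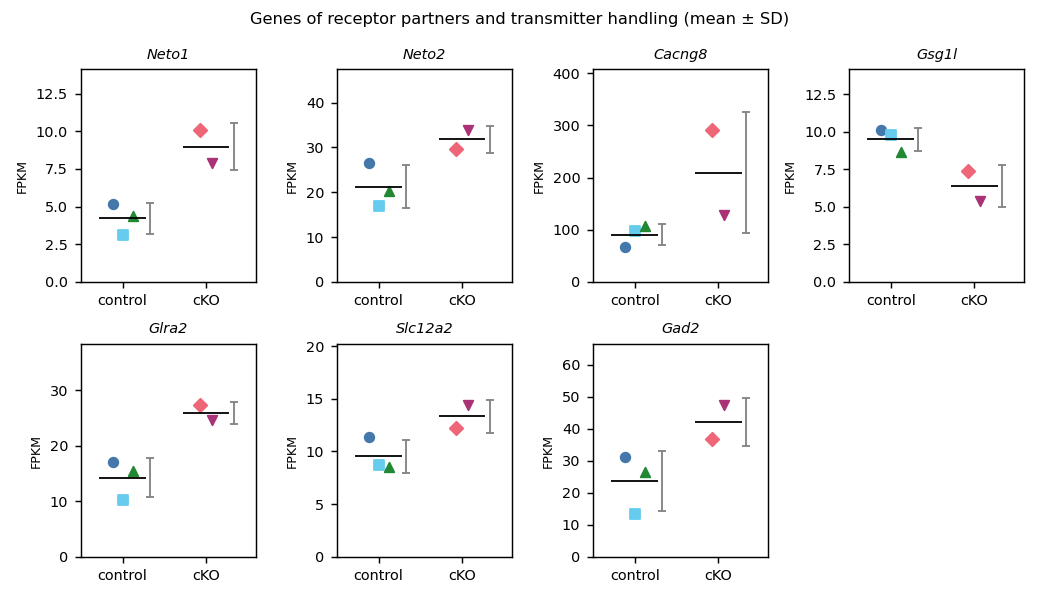
FPKM in each library (symbols as for the separated subunit genes) of 7 partner genes, with means and ± SD (n = 3 controls, n = 2 cKO). Gsg1l is lower in both cKO libraries than in any control and the other 6 are higher, and none passed limma's test over all loci. The locus plotted as Cacng8 carries 2 gene symbols.

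Several partners of inhibitory signalling also had separated groups. Glra2, which encodes the alpha-2 glycine receptor of immature neurons, was 17.1, 10.3 and 15.4 FPKM in the controls and 27.4 and 24.6 in the cKO (log2 change 0.85, SE 0.23, adjusted p = 0.575), and Glrb, the glycine receptor beta gene, was 7.99, 4.88 and 6.45 against 8.43 and 10.1. Slc12a2, the chloride importer NKCC1, was 11.3, 8.74 and 8.49 in the controls and 12.2 and 14.4 in the cKO, while Slc12a5, the exporter KCC2, was 27.8, 2.20 and 12.1 and then 12.7 and 7.82, inside the control range. Gad2, an enzyme of GABA synthesis, was 31.3, 13.2 and 26.3 in the controls and 36.9 and 47.4 in the cKO. Of the 6 tested genes for GABA synthesis and transport, 2 had both cKO libraries above every control, as did 13.4% of all tested loci. Gad1 overlapped between groups at 38.5, 12.7 and 25.2 against 41.3 and 37.8. Slc32a1 overlapped at 39.7, 22.2 and 29.4 against 41.5 and 23.4. Gad2 marks GABAergic cells. Of the 14 ventral and GABAergic markers, 9 had both cKO libraries above every control, against the same 13.4%. Dlx2 was among them at 45.9, 59.2 and 68.1 against 104 and 117 FPKM. Gabarapl2, of the family that traffics GABA-A receptors, was 19.2, 19.4 and 19.6 in the controls and 23.9 and 27.7 in the cKO. Gabarap and Gabarapl1, of the same family, overlapped between groups with negative log2 changes of -0.066 and -0.265. Lhfpl4, which anchors GABA-A receptors with neuroligin-2, overlapped between groups at 44.8, 29.96 and 34.3 against 36.6 and 14.9.

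The other partner lists overlapped between groups for most members. Homer1 encodes a scaffold that binds group I metabotropic receptors such as mGlu5. It was 10.6, 7.76 and 8.34 FPKM in the controls and 12.1 and 11.2 in the cKO. Of 14 excitatory scaffold genes, only this 1 had both cKO libraries above every control, as did 13.4% of all tested loci. Pick1, which binds GluA2, was 28.2, 34.7 and 32.2 in the controls and 28.2 and 18.6 in the cKO. Slc1a1, a neuronal glutamate transporter, was 8.13, 6.50 and 6.31 in the controls and 9.85 and 7.88 in the cKO, and Slc1a2, the glial transporter GLT-1, was 16.9, 3.66 and 8.98 against 13.3 and 13.9. Of the GABA-B partners, Kctd8 was 4.31, 0.686 and 1.83 in the controls and 3.34 and 3.29 in the cKO, and Kctd12 was 20.9, 11.2 and 10.02 against 15.2 and 12.3.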

How the data were processed

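RNA of E14.5 cortex was sequenced from 3 control and 2 Chd8 cKO samples. Groups and replicate numbers came from the sample titles. Per the submitters' processing notes, CASAVA, TopHat, Cufflinks, Bowtie2 and MACS were named for the series and mm10 as the build, with neither version nor role. Strand setting and annotation: not given in the sources used here. Deposited by the authors were an FPKM per locus and library and, per the file headers, their own comparison of each locus: the log2 fold change, the score of the test, and p-value with q-value. The unit FPKM was inferred from the values and from the named tools. FPKM holds no counts, and the lowest values fell on no common step (21.0% to 56.0% of loci under 0.05 FPKM lay within 0.15 log2 units of the commonest ratio to control 1), so depth is unknown and no interval for counting error can be given. FPKM summed to between 418191 and 484296 per library.

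Loci averaging 1 FPKM or more across the 5 libraries were tested on log2(FPKM + 1), a scale that shrinks differences of low genes. The fit used limma 3.58.1 under R 4.3.3, an intensity trend and Benjamini-Hochberg adjustment over 12672 loci (3 residual degrees of freedom, prior 2.49). The procedure was tested on simulated data. The members and lists were chosen with earlier results of these data known. Named genes were Chd8, the 15 tested members with the smallest p, the highest and next highest member of each family, and up to 2 genes of each partner and marker list with the smallest p (of the marker lists, few are printed). Grin3b, Gabrg3, Gabrd, Irx1 and other members were named after their values were seen. Gene spans and promoters came from RefSeq (GRCm38.p6, of which mm10 is another name), by symbol. Alternatives were a pseudocount of 0.1 FPKM, no filter, a mean of at least 5 FPKM, median-ratio scaling, no intensity trend, the replicate number as a block, and leaving out each library. Some genes of the lists are counted but not reported here by name or in the plots. The listed marker Hbb-bt matched no locus.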

Additional observations from a re-analysis of the deposited data

How the results depend on the processing

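No subunit gene was called over all loci under any of the 11 alternatives of the limma fit. The list median of 0.28 ranged from -0.01 to 0.55 when 1 library was left out and from 0.18 to 0.38 under the 6 other alternatives. At the unadjusted limma threshold of 0.05, leaving out control 1 gave 10 members higher in the cKO and 0 lower. Leaving out control 2 or control 3 gave 1 and 0, as with all libraries. The share of all tested loci at that threshold was not counted for the alternatives, so these counts have no background. With no filter on low values 1 member was lower (Grik5, unadjusted p = 0.0468 in limma). All loci called went from 6 to between 8 and 35 without 1 library. With the replicate number as a block the count was 3, and the deviations of same-numbered libraries correlated at -0.067 and -0.109 across loci, so the numbers were not taken to pair the samples. Both cKO libraries lay above every control in 4 to 19 of 32 members, against 13.4% to 27.7% of all tested loci. They lay below every control in 2 to 4, against 15.6% to 34.5%. A positive change was found in 14 to 29, against 45.1% to 49.8%. These ranges cover the fit with all libraries and each omission of 1 library. The counts were added after seeing the data, and leaving a library out can only add to those above and below.

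Several log2 changes turned sign without 1 library, and the cause was not tested. Over the 5 omissions Grin2d ranged from -0.825 to 0.429, Grin1 from -0.348 to 0.395, Grid1 from -0.085 to 0.553, Gabra3 from -0.373 to 0.55 and Gabbr2 from -0.117 to 0.489, each lowest without control 2 and highest without control 1, and the list median was -0.014 without control 2. Grin2b ranged from -0.088 to 0.712, Gria2 from -0.137 to 0.254 and Gabbr1 from -0.319 to 0.141, each lowest without cKO 1 and highest without cKO 2. Without cKO 1 the unadjusted p of Gabra2 in limma was 0.0618. Where 1 cKO library was left, it was assumed to vary like the controls.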

Other observations

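Receptor subunit genes are long, and their log2 changes differed with length. The median RefSeq span of the 32 tested genes was 224.1 kb against 23.5 kb for 11894 tested loci with a RefSeq span. All 22 members of at least 100 kb had a positive log2 change (median 0.334), and 5 of the 10 shorter ones did (median -0.027). Among all tested loci of at least 100 kb, 56.5% of 1743 were positive (median 0.046), and among shorter ones 45.3% of 10151 were (median -0.035). Across genes, Spearman's rho of span and log2 change was 0.328 over the 32 and 0.188 over the 11894, with all points from the same 5 libraries. Without control 2, 12 of the 22 long members were positive (median 0.07), and 47.1% of all long loci were. The length limit was chosen after seeing the data.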
